A study of Mus musculus with 24 samples.

Results

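The genes described here are the classical axon guidance ligands and receptors: the semaphorins of classes 3 to 7 with their plexin and neuropilin receptors, the ephrins with the Eph receptors, the netrins with DCC and the UNC5 receptors, and the slits with the ROBO receptors. They were picked by symbol from the probe sets annotated to 1 gene, which gave 68 of the 18194 genes and 151 of the 34958 such probe sets. The 68 genes comprised 7 class 3 semaphorins, 13 semaphorins of classes 4 to 7, 9 plexins, 2 neuropilins, 4 netrins, 5 netrin receptors, 3 slits, 4 robos, 5 ephrin-A and 3 ephrin-B ligands, 9 EphA and 4 EphB receptors. The symbol rule itself uses no measured value.

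RNA came from primary cortical neurons of E18 mice, kept for 1 week in culture and measured on 24 Affymetrix arrays. At 2 h and again at 12 h there were 4 groups of 3 arrays: BDNF at 50 ng per ml with IBET858 at 1 µM, IBET858 alone, BDNF alone, and the solvent DMSO. IBET858 blocks the BET family of readers of acetylated histones, and BDNF is the neurotrophin that activates the TrkB receptor. No strain is labelled. Nothing tells whether a group's 3 arrays are independent cultures, and the p-values reflect the spread among these arrays alone.

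Guidance cues steer growing axons through receptors on the growth cone, and many of the same molecules shape dendrites and synapses later on. Secreted class 3 semaphorins signal through neuropilin and plexin complexes, most often as repellents, while the semaphorins of the other classes are membrane-bound. Netrins attract through DCC and repel through UNC5 receptors, slits repel through ROBO receptors, and ephrins, which are tethered to the cell surface, signal with Eph receptor kinases in both directions across a contact. In the cortex these systems guide callosal, thalamic and corticospinal axons and the migration of neurons into their layers.

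All values are log2 intensities centred for each probe set on its median over the 24 arrays, averaged over the probe sets of a gene. They show how arrays differ for 1 gene and hold no level, so genes were not ranked by abundance and the presence of neuronal or glial markers could not be checked. In the check genes, BDNF raised the activity-regulated gene Arc by 5.59 on the log2 scale at 2 h (SE 0.14), and IBET858 raised Hexim1, a gene known to respond to BET inhibition, by 2.48 (SE 0.10). Replicate 1 of DMSO at 2 h stood apart from its group: the SD of its difference from the other arrays of its group was 0.426 over the 68 genes, against 0.0777 to 0.253 on the other 23 arrays. It was low for Sema3e, Nrp1, Sema7a, Slit2, Unc5c and Plxnd1 and high for Epha4 and Sema4a. Over all genes, replicate 3 of IBET858 at 12 h stood next to it, with an SD of 0.235, against 0.267 for that DMSO array. Without these 2 arrays, 35 of the 40 calls with IBET858 at 12 h were kept, those of Epha1, Epha2, Ntn1, Plxnb2 and Sema3f were lost, and those of Efna5, Efnb2, Sema5b and Slit3 were gained.

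At 12 h with IBET858, 40 of the 68 genes passed the limma test at an adjusted p under 0.05, 16 higher and 24 lower than with DMSO. This is 58.8% of the genes beside 48.7% of all genes tested (22.9% higher and 25.8% lower). BDNF alone changed 43 of them at 12 h, 16 higher and 27 lower, or 63.2% beside 41.0% of all genes (16.9% higher and 24.2% lower). IBET858 given with BDNF changed 45 relative to BDNF alone, 20 higher and 25 lower, or 66.2% beside 46.8% of all genes (21.1% higher and 25.6% lower). Called changes of more than 1 log2 unit were fewer: 7 with IBET858 (3 higher and 4 lower, beside 4.63% of all genes), 4 with BDNF (2 each way, beside 3.09%) and 13 with IBET858 added to BDNF (5 higher and 8 lower, beside 6.27%). The median log2 fold changes of the 68 genes were close to 0 in these comparisons, at -0.066, -0.076 and -0.062, beside 0.041, -0.012 and -0.0100 over all genes. In a bulk culture, fewer cells of a type and less RNA per cell cannot be told apart. The fall of some markers of other cells ran beside the 12 h changes with IBET858: 4 of 9 astrocyte markers fell (Aqp4 by 1.21 and Gja1 by 1.02 on the log2 scale) and 1 rose, and 4 of 8 microglial markers fell. Of all genes, 25.8% fell and 22.9% rose with IBET858, as given above. The mean of the 9 astrocyte markers lay between -0.358 and -0.204 with IBET858 at 12 h, against -0.129 to 0.330 with DMSO, and that of the 8 microglial markers between -0.327 and -0.159, against -0.087 to -0.045. With BDNF at 12 h, 3 of the 9 astrocyte markers fell, with a mean between -0.322 and -0.195, and 2 of the 8 microglial markers fell. With IBET858 added to BDNF, 2 astrocyte markers fell and 1 rose relative to BDNF, and 3 microglial markers fell. Of 8 neuronal markers at 12 h, 2 rose and 4 fell with IBET858, 4 rose and 4 fell with BDNF, and 3 rose and 1 fell with IBET858 added to BDNF. Their mean lay between 0.399 and 0.425 with both agents, -0.419 and -0.221 with IBET858, 0.149 and 0.174 with BDNF, and -0.495 and -0.402 with DMSO. At 12 h the mean of the 8 neural progenitor markers lay between 0.319 and 0.352 with both agents and 0.143 and 0.261 with BDNF. With IBET858 it lay between -0.145 and -0.053, against -0.147 to 0.075 with DMSO. The mean of the 9 vascular and meningeal markers with IBET858 lay between -0.053 and 0.203, against -0.063 to -0.029 with DMSO. For the 7 oligodendrocyte lineage markers it lay between -0.149 and -0.0047, against -0.043 to 0.127. At 2 h the mean of the 9 vascular and meningeal markers lay at 0.480 to 0.561 with both agents, against -0.071 to 0.0079 with DMSO. It lay between -0.048 and 0.050 with IBET858 and between -0.044 and 0.0033 with BDNF. Means of the neuronal (0.426 to 0.484) and microglial (0.214 to 0.420) markers were also highest with both agents. Those of the astrocyte, oligodendrocyte lineage and neural progenitor markers overlapped DMSO. The part of these markers in the results below was not tested.

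**Figure D1:**
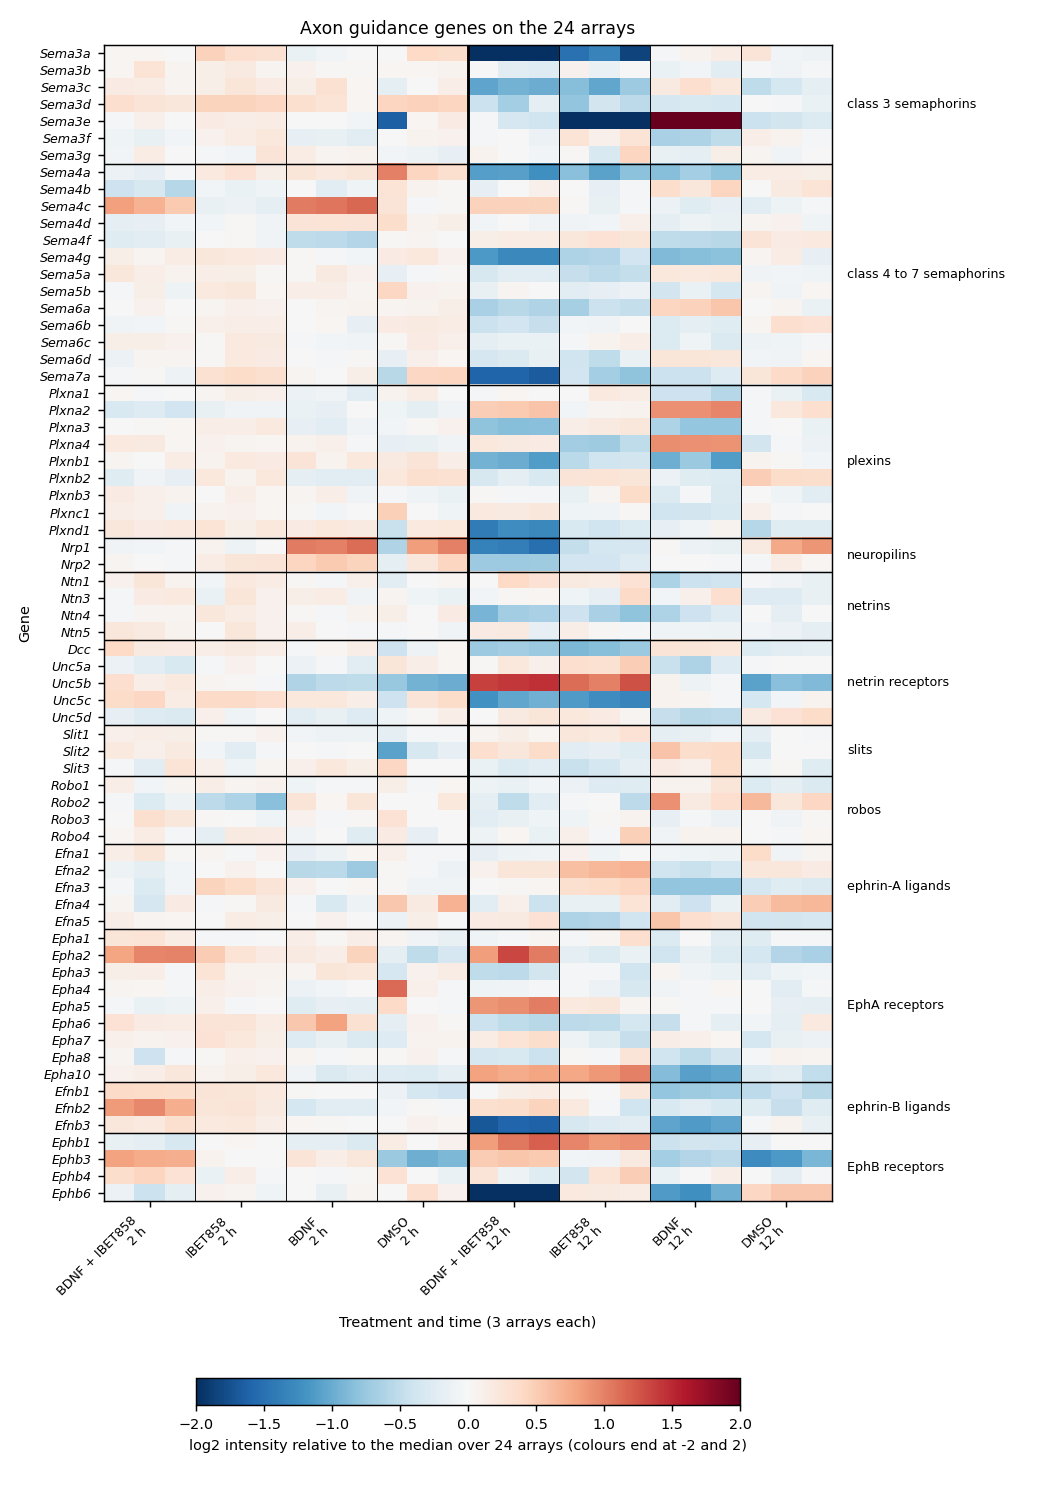
Each row is 1 of the 68 guidance genes and each column 1 of the 24 arrays, in groups of 3 by treatment, with 2 h on the left of the thick line and 12 h on the right. Colour gives the log2 intensity relative to the median over the 24 arrays, with the scale ending at -2 and 2. Most rows are pale at 2 h, and values beyond -2 or 2 occur at 12 h in Sema3a, Sema3e and Ephb6.

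Class 3 semaphorins carried the widest responses among the ligands. Sema3e, a secreted semaphorin that binds plexin D1 without needing a neuropilin, read -0.04, -0.34 and -0.40 at 12 h with BDNF and IBET858, -2.01, -2.07 and -2.26 with IBET858, 2.33, 2.46 and 2.48 with BDNF, and -0.42, -0.36 and -0.28 with DMSO. The IBET858 arrays and the BDNF arrays lay far to either side of the DMSO arrays, and the arrays with both agents overlapped those with DMSO. IBET858 lowered it 3.38-fold (log2 fold change -1.76, SE 0.27, limma adjusted p = 1.07e-05) and BDNF raised it 6.86-fold (2.78, SE 0.27, adjusted p = 2.98e-08). Added to BDNF, IBET858 lowered it 6.42-fold, a log2 fold change of -2.68 (SE 0.27). Its 4 probe sets moved the same way, by -2.32 to -1.18 with IBET858 and 2.48 to 3.17 with BDNF. At 2 h none of the comparisons of Sema3e passed. The DMSO arrays at 2 h read -1.64, 0.039 and 0.17, so that the estimate with IBET858 was 0.63 with all arrays and 0.048 without the 2 arrays named above.

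The window around the annotated start of Sema3e runs from 250 bases before to 50 bases after it. It is printed because this gene had the largest fall with IBET858 at 12 h. It lies at chr5:14025026-14025325 on the plus strand (GRCm38.p6, sequence from RefSeq), and the capitals mark the E-box CACGTG, which begins at base 274.
Sema3e: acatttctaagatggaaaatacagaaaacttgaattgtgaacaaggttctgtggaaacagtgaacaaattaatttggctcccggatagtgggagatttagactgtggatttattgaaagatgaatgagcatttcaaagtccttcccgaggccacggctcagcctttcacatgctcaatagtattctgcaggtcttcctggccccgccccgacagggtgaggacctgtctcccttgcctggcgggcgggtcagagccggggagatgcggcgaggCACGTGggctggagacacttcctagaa
Letter patterns of CRE (TGACGTCA), AP-1 (TGANTCA), the E-box (CACGTG) and EGR (GCGTGGGCG), were searched on both strands, and only the E-box was found here. Among 32851 RefSeq windows of the same length, 7.15% held the E-box, 7.81% AP-1, 1.79% CRE and 0.612% EGR. Of 74 windows found for 58 of the guidance genes, 5 held the E-box, 3 AP-1, 1 CRE and 2 EGR. A match of letters is a description of the window and not a site.

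Sema3a, the founding repellent semaphorin, read -2.09, -2.46 and -2.33 at 12 h with BDNF and IBET858 and -1.49, -1.34 and -1.84 with IBET858. It read -0.017, 0.07 and 0.15 with BDNF and 0.26, -0.057 and -0.11 with DMSO. Both groups given IBET858 were below every other array, and the BDNF and DMSO arrays overlapped. IBET858 lowered Sema3a 3.01-fold on its own (log2 fold change -1.59, SE 0.12, limma adjusted p = 6.4e-10) and 5.14-fold in the presence of BDNF (-2.36, SE 0.12). The second change was larger than the first by 0.77 on the log2 scale (SE 0.17, adjusted p = 0.00379). With BDNF alone the log2 fold change was 0.035 (SE 0.12).

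Sema3c, which is secreted and binds both neuropilins, read -1.05, -0.95 and -0.997 with BDNF and IBET858 at 12 h, -0.85, -1.04 and -0.72 with IBET858, 0.17, 0.33 and 0.21 with BDNF, and -0.51, -0.36 and -0.20 with DMSO. Thus the BDNF arrays were above and both IBET858 groups below all DMSO arrays. It fell by 0.51 with IBET858 and by 1.24 with IBET858 added to BDNF, and rose by 0.59 with BDNF (SE 0.093 each). Sema3d fell by 0.52 with IBET858 and by 0.28 with BDNF. Sema3f, which acts through Nrp2, ran the other way: it rose by 0.53 with IBET858 added to BDNF and fell by 0.64 with BDNF. Its rise of 0.16 with IBET858 did not pass without the 2 arrays that stood apart (log2 fold change 0.13, limma adjusted p = 0.105). Across the 7 class 3 genes, 4 fell and 1 rose, that of Sema3f, with IBET858 at 12 h, or 71.4% beside 48.7% of all genes. With BDNF, 2 fell and 2 rose, 57.1% beside 41.0%. Sema3b and Sema3g passed in none of the 8 treatment comparisons.

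Among the 13 membrane-bound semaphorins, 7 passed with IBET858 at 12 h, all lower, which is 53.8% beside 48.7% of all genes. When IBET858 was added to BDNF, 8 fell and 3 rose, 84.6% beside 46.8%. With BDNF alone, 6 fell and 3 rose, 69.2% beside 41.0%. Sema7a, which is anchored by a lipid and binds plexin C1 and integrins, read -1.60, -1.61 and -1.67 with BDNF and IBET858, -0.38, -0.67 and -0.81 with IBET858, -0.43, -0.44 and -0.26 with BDNF, and 0.24, 0.38 and 0.46 with DMSO. Each agent alone placed all 3 arrays below DMSO, and the combination lay below either. The log2 fold changes of Sema7a were -0.98 with IBET858 and -0.74 with BDNF against DMSO, and -1.25 for the combination against BDNF (SE 0.17 each). Sema4a read -1.10, -1.08 and -1.23 with both agents, -0.84, -1.07 and -0.83 with IBET858, -0.85, -0.68 and -0.80 with BDNF, and 0.15, 0.16 and 0.11 with DMSO. Here too no treated array reached the DMSO arrays, and the fall was 2.07-fold with IBET858 (log2 fold change -1.05, SE 0.11, limma adjusted p = 9.88e-08). Sema4g fell by 0.54 with IBET858 and by 0.86 with BDNF. Sema6a, a ligand of plexins A2 and A4, fell by 0.50 with IBET858, rose by 0.50 with BDNF and fell by 1.08 when IBET858 was added to BDNF (SE 0.061 each).

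Sema4c, a ligand of plexin B2, was the semaphorin with the largest change at 2 h. It read 0.83, 0.69 and 0.53 with BDNF and IBET858, -0.14, -0.11 and -0.18 with IBET858, 1.04, 1.07 and 1.14 with BDNF, and 0.26, -0.029 and 0.028 with DMSO. All 6 arrays given BDNF were above the 6 without it. The log2 fold change with BDNF was 1.00 at 2 h (SE 0.077, limma adjusted p = 2.01e-09) and -0.067 at 12 h (SE 0.077, adjusted p = 0.55). At 12 h the arrays with both agents stayed above the rest, at 0.47, 0.46 and 0.44, against -0.12, -0.24 and -0.17 with BDNF alone. Sema4f fell with BDNF at both times, by 0.57 at 2 h and 0.74 at 12 h, and IBET858 added to BDNF raised it by 0.33 and 0.67.

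Of the semaphorin receptors, both neuropilins fell with IBET858. Nrp1 is a coreceptor for several class 3 semaphorins. At 12 h it read -1.35, -1.38 and -1.51 with BDNF and IBET858, and -0.47, -0.36 and -0.33 with IBET858. It read 0.029, -0.11 and -0.15 with BDNF, and 0.18, 0.77 and 0.88 with DMSO. Every treated array was below the DMSO arrays and the combination was lowest. The log2 fold changes were -0.998 with IBET858 (SE 0.25, limma adjusted p = 0.0022), -0.69 with BDNF (adjusted p = 0.033) and -1.34 for the combination against BDNF (adjusted p = 0.000117). At 2 h Nrp1 read -0.069, -0.06 and -0.041 with both agents, against 1.04, 1.00 and 1.12 with BDNF alone, 2.16-fold lower. IBET858 alone read 0.066, -0.10 and -0.016 at 2 h, against -0.60, 0.84 and 1.01 with DMSO. The array at -0.60 is the one that stood apart: the log2 fold change with IBET858 at 2 h was -0.43 with all arrays (adjusted p = 0.291) and -0.94 without the 2 arrays that stood apart (SE 0.13, limma adjusted p = 3.47e-05). Nrp2 fell by 0.40 with IBET858 at 12 h, and by 0.47 at 2 h and 0.71 at 12 h when IBET858 was added to BDNF.

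The 9 plexins divided by treatment. Plxna4, which transmits Sema3a and Sema6a signals, read 0.21, 0.18 and 0.16 at 12 h with both agents, -0.70, -0.71 and -0.51 with IBET858, 0.94, 0.91 and 0.90 with BDNF, and -0.37, -0.018 and -0.11 with DMSO. The 4 groups of Plxna4 did not overlap at 12 h, with BDNF on top and IBET858 lowest. It rose 2.12-fold with BDNF (log2 fold change 1.08, SE 0.073, limma adjusted p = 1.43e-10) and fell by 0.48 with IBET858. Plxna2 rose by 0.76 with BDNF, while Plxna3, the partner of Nrp2 in Sema3f signalling, fell by 0.67 and Plxnb1, the receptor of Sema4d, by 0.96. In all, 2 plexins rose and 5 fell with BDNF at 12 h, 77.8% beside 41.0% of all genes, and 2 rose and 3 fell with IBET858, 55.6% beside 48.7%.

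Plxnd1, the receptor of Sema3e, passed at 12 h in the comparisons with the combination and not with either agent alone. It read -1.40, -1.25 and -1.29 with both agents, -0.30, -0.40 and -0.28 with IBET858, -0.16, -0.073 and 0.073 with BDNF, and -0.57, -0.24 and -0.24 with DMSO. The arrays with both agents lay well below all others. IBET858 gave a log2 fold change of 0.026 without BDNF (SE 0.12) and of -1.26 with it (SE 0.12, limma adjusted p = 1.63e-08). The difference between these 2 changes was -1.28 (SE 0.17, adjusted p = 2.33e-05), the most negative among the 68 genes. Plxnc1, the receptor of Sema7a, fell by 0.38 with BDNF and rose by 0.56 when IBET858 was added to BDNF, and the difference of its IBET858 changes was 0.62 (SE 0.13).

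**Figure D2:**
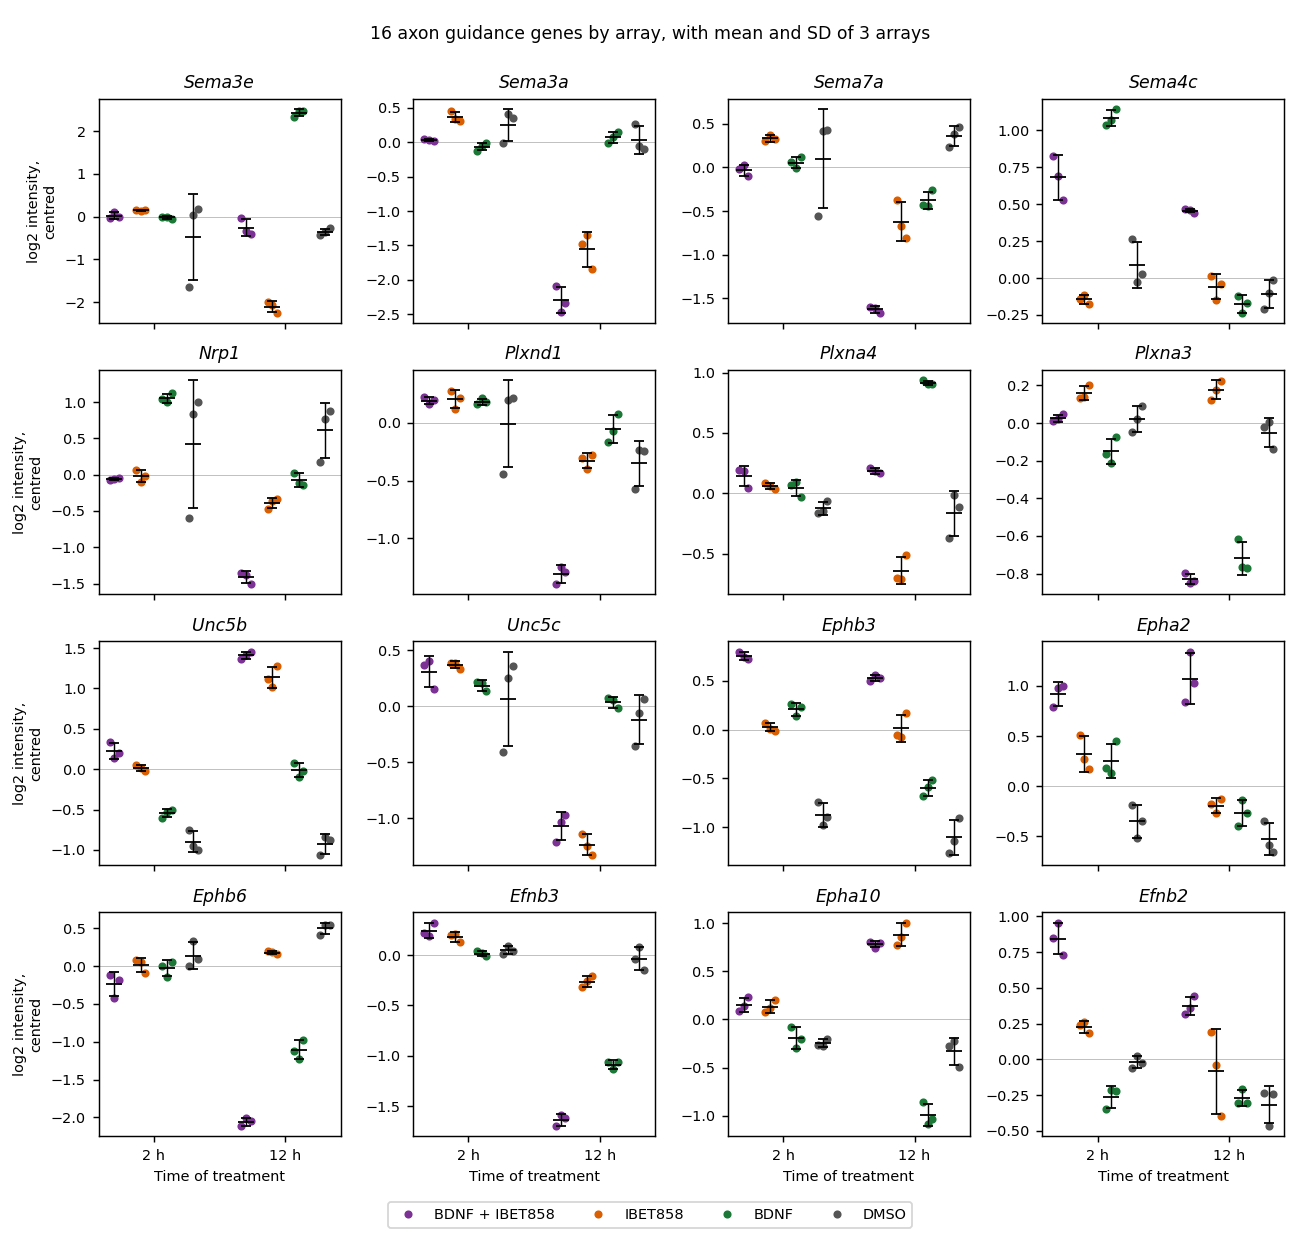
Points are single arrays, horizontal bars the mean and whiskers the SD of 3 arrays, for 16 guidance genes. The vertical axis is the centred log2 intensity and the horizontal axis the time, with BDNF and IBET858 together, IBET858, BDNF and DMSO from left to right at each time. For Sema3e at 12 h the BDNF arrays sit at 2.33 to 2.48 and the IBET858 arrays at -2.26 to -2.01, and the wide bars of DMSO at 2 h come from replicate 1.

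Netrin receptors showed the largest rise with IBET858 and a large fall beside it. Unc5b, a receptor for netrin repulsion, read 1.36, 1.42 and 1.45 at 12 h with BDNF and IBET858, 1.12, 1.01 and 1.28 with IBET858, 0.073, -0.098 and -0.018 with BDNF, and -1.07, -0.84 and -0.88 with DMSO. The order of the 4 groups was the same in every array, with no overlap. It rose 4.19-fold with IBET858 (log2 fold change 2.07, SE 0.078, limma adjusted p = 1.78e-14) and by 0.92 with BDNF (SE 0.078, adjusted p = 4.38e-09). At 2 h the rise with IBET858 was already 0.92 (SE 0.078, adjusted p = 1.62e-08) and that with BDNF 0.35. The 2 agents together gave less than the sum of their separate changes at 12 h, by 0.64 on the log2 scale (SE 0.11, adjusted p = 0.000325).

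The Unc5b window, shown because this was the largest rise with IBET858, lies at chr10:60831532-60831831 on the minus strand (GRCm38.p6, RefSeq, 250 bases before to 50 after the start). None of the 4 patterns was found in it, so it holds no capitals.
Unc5b: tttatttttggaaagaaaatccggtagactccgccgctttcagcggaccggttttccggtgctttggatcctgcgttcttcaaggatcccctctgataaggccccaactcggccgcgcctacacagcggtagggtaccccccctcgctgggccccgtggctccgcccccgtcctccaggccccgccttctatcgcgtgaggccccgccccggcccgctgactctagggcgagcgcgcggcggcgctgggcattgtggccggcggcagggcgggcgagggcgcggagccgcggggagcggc
G and C made up 69.7% of the Unc5b window and 50.7% of the Sema3e window, beside a median of 52.7% over all windows and 64.2% over those of the guidance genes.

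Unc5c, a second repulsive netrin receptor, read -1.21, -1.03 and -0.97 with both agents, -1.13, -1.24 and -1.32 with IBET858, 0.074, 0.053 and -0.017 with BDNF, and -0.36, -0.06 and 0.064 with DMSO at 12 h. Both groups given IBET858 were below all 6 arrays without it. The fall was 2.17-fold with IBET858 (log2 fold change -1.12, SE 0.14, limma adjusted p = 6.44e-07), opposite in sign to that of Unc5b in the same arrays. Dcc, the receptor for netrin attraction, fell by 0.61 with IBET858, rose by 0.46 with BDNF and fell by 0.96 with IBET858 added to BDNF (SE 0.083 each). Unc5d, a receptor of FLRT proteins, fell by 0.79 with BDNF, and IBET858 added to BDNF raised it by 0.66. Its 12 h arrays with both agents, at 0.011, 0.18 and 0.25, overlapped those with IBET858, at 0.22, 0.16 and 0.062. Unc5a rose by 0.38 with IBET858 and fell by 0.44 with BDNF. Netrins themselves moved less: Ntn1, the main secreted netrin, fell by 0.41 with BDNF, and Ntn4, a laminin-like netrin, fell by 0.56 with IBET858 and 0.37 with BDNF. The rise of Ntn1 with IBET858 was 0.28 and did not pass without the 2 arrays that stood apart (0.24, limma adjusted p = 0.0563).

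Of the 4 robos, 1 passed with IBET858 and 1 with BDNF at 12 h, and of the 3 slits, 1 passed with IBET858 and 2 with BDNF. Among all genes, 48.7% passed with IBET858 and 41.0% with BDNF. Robo2, a slit receptor, read -0.52, -0.62 and -0.84 at 2 h with IBET858, against -0.0085, 0.0088 and 0.21 with DMSO, a log2 fold change of -0.73 (SE 0.16, limma adjusted p = 0.0029). It was the largest fall with IBET858 at 2 h among the 68 genes with all arrays. Without the 2 arrays that stood apart Nrp1 fell further, as given above. At 12 h the change of Robo2 was -0.61. Robo2 read -0.022, 0.0085 and -0.53 with IBET858 at 12 h, so that 1 array carried much of it, and without the 2 arrays that stood apart the change was -0.43 (limma adjusted p = 0.0408). Robo1 rose by 0.37 with BDNF at 12 h. Slit2, a repellent ligand, read 0.58, 0.36 and 0.38 with BDNF at 12 h, against -0.32, 0.0035 and -0.014 with DMSO, a rise of 0.55. At 2 h its rise with BDNF was 0.52 with all arrays and 0.24 without replicate 1 of DMSO. Slit1 rose by 0.31 with IBET858 at 12 h and, when IBET858 was added to BDNF, by 0.21 at 2 h and 0.19 at 12 h (SE 0.055 each). Slit3 rose by 0.31 with BDNF at 12 h and fell by 0.42 when IBET858 was added to BDNF. Robo3, which acts in commissural axons, and Robo4, a vascular receptor, passed in none of the 8 treatment comparisons.

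Ephrin ligands changed in the same direction with the 2 agents in some genes and in opposite directions in others. Efnb3, a transmembrane ephrin, read -1.70, -1.59 and -1.62 at 12 h with BDNF and IBET858, -0.32, -0.26 and -0.21 with IBET858, -1.06, -1.13 and -1.06 with BDNF, and -0.034, 0.078 and -0.15 with DMSO. The 4 groups formed 4 separate levels. Its fall was 2.07-fold with BDNF (log2 fold change -1.05, SE 0.057, limma adjusted p = 4.79e-12) and 2.59-fold when BDNF was added to IBET858 (-1.37, SE 0.057). Efnb2, a second transmembrane ephrin, read 0.85, 0.96 and 0.73 at 2 h with both agents, 0.24, 0.26 and 0.18 with IBET858, -0.35, -0.22 and -0.22 with BDNF, and -0.061, 0.026 and -0.024 with DMSO. Only the arrays with both agents were above 0.5. The mean of the vascular and meningeal markers was also highest with both agents at 2 h, as given above. IBET858 added to BDNF raised it 2.15-fold at 2 h (1.11, SE 0.10, adjusted p = 1.55e-08), and this change exceeded that of IBET858 without BDNF by 0.86 (SE 0.14, adjusted p = 0.000314), the largest such difference among the 68 genes at 2 h. Efnb1 rose with IBET858 by 0.53 at 2 h and 0.58 at 12 h.

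The ephrin-A ligands, which are anchored by a lipid, were Efna1 to Efna5. Efna2 and Efna3 rose with IBET858 at 12 h, by 0.45 and 0.66, and fell with BDNF, by 0.61 and 0.49 (SE 0.061 each). Efna5, a repellent for cortical and retinal axons, rose by 0.75 with BDNF at 12 h. It read 0.16, 0.17 and 0.29 with both agents, against -0.61, -0.59 and -0.39 with IBET858, a rise of 0.74, and 0.56, 0.34 and 0.26 with BDNF, against -0.40, -0.36 and -0.34 with DMSO. With only the probe sets free of a shared-sequence suffix, the Efna5 rise with BDNF was 1.27. Efna4 fell by 0.60 with IBET858 and by 0.85 with BDNF, and Efna1 passed in none of the 8 treatment comparisons.

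Ephb3, a receptor kinase for ephrin-B ligands, was the 1 gene of the 68 that passed in all 8 treatment comparisons. At 2 h it read 0.80, 0.75 and 0.72 with BDNF and IBET858, 0.071, 0.0089 and -0.0089 with IBET858, 0.26, 0.14 and 0.23 with BDNF, and -0.74, -0.98 and -0.89 with DMSO. At 12 h it read 0.50, 0.56 and 0.53 with both agents, -0.059, -0.071 and 0.18 with IBET858, -0.68, -0.59 and -0.52 with BDNF, and -1.26, -1.15 and -0.91 with DMSO. The combination was highest and DMSO lowest at both times. BDNF raised it by 1.08 at 2 h (SE 0.082, limma adjusted p = 1.5e-09) and by 0.51 at 12 h. IBET858 raised it by 0.90 at 2 h and 1.12 at 12 h (SE 0.082 each).

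The Ephb3 window, shown because this gene had the largest rise with BDNF at 2 h, lies at chr16:21204545-21204844 on the plus strand (GRCm38.p6, RefSeq, 250 bases before to 50 after the start). None of the 4 patterns was found in it.
Ephb3: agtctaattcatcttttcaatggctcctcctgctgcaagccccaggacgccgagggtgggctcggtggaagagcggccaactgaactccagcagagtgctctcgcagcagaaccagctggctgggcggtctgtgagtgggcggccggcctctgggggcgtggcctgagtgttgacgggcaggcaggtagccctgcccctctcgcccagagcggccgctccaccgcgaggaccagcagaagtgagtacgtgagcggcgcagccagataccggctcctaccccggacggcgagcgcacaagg
G and C made up 66.7% of the Ephb3 window, close to the median of the guidance genes. The window of Efna4, picked for the largest fall with BDNF at 2 h, is not printed. It held none of the 4 patterns and 55.7% G and C.

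Ephb6, a member of the family without kinase activity, read -2.12, -2.01 and -2.04 at 12 h with BDNF and IBET858, 0.19, 0.18 and 0.15 with IBET858, -1.13, -1.22 and -0.97 with BDNF, and 0.41, 0.54 and 0.55 with DMSO. The groups given BDNF were far below those without it. Ephb6 fell 3.04-fold with BDNF (log2 fold change -1.60, SE 0.088, limma adjusted p = 5.94e-12) and 4.71-fold when BDNF was added to IBET858 (-2.23, SE 0.088, adjusted p = 3.74e-14). That value was the most negative of all 18194 genes in that comparison. With IBET858 alone the fall was 0.32, and at 2 h the change with BDNF was -0.17 (adjusted p = 0.185).

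Epha10, which also lacks kinase activity, read 0.80, 0.74 and 0.79 at 12 h with both agents, 0.77, 0.86 and 1.00 with IBET858, -0.86, -1.08 and -1.04 with BDNF, and -0.28, -0.23 and -0.49 with DMSO. The 6 arrays given IBET858 were high whether or not BDNF was present. It rose 2.31-fold with IBET858 (log2 fold change 1.21, SE 0.078, limma adjusted p = 4.03e-11), fell by 0.66 with BDNF and rose 3.42-fold with IBET858 added to BDNF. Ephb1, a kinase receptor for ephrin-B ligands, read 0.84, 1.05 and 1.20 with both agents, 0.98, 0.85 and 0.91 with IBET858, -0.42, -0.37 and -0.41 with BDNF, and -0.17, -0.0022 and 0.001 with DMSO. Here too both groups given IBET858 were above all arrays without it, with log2 fold changes of 0.97 with IBET858, -0.34 with BDNF and 1.43 for the combination against BDNF (SE 0.074 each).

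Epha2, a receptor kinase, stood out for the combination. At 12 h it read 0.84, 1.34 and 1.03 with both agents, -0.18, -0.27 and -0.13 with IBET858, -0.40, -0.14 and -0.27 with BDNF, and -0.35, -0.58 and -0.66 with DMSO. Arrays of the combination were above every other array. The log2 fold change with IBET858 was 1.34 in the presence of BDNF and 0.34 in its absence (SE 0.12 each), of which the second did not pass without the 2 arrays that stood apart (0.30, limma adjusted p = 0.0756). Between the 2 changes the difference was 1.01 (SE 0.17, limma adjusted p = 0.000339), the largest positive one among the 68 genes at 12 h. Epha5, a receptor for ephrin-A ligands, read 0.89, 0.93 and 1.03 with both agents, 0.19, 0.23 and 0.062 with IBET858, 0.022, -0.019 and -0.043 with BDNF, and 0.014, -0.16 and -0.20 with DMSO. Its change with IBET858 was 0.27 without BDNF and 0.96 with it, a difference of 0.69 (SE 0.12). Epha4 and Ephb4 passed in none of the 8 treatment comparisons.

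**Figure D3:**
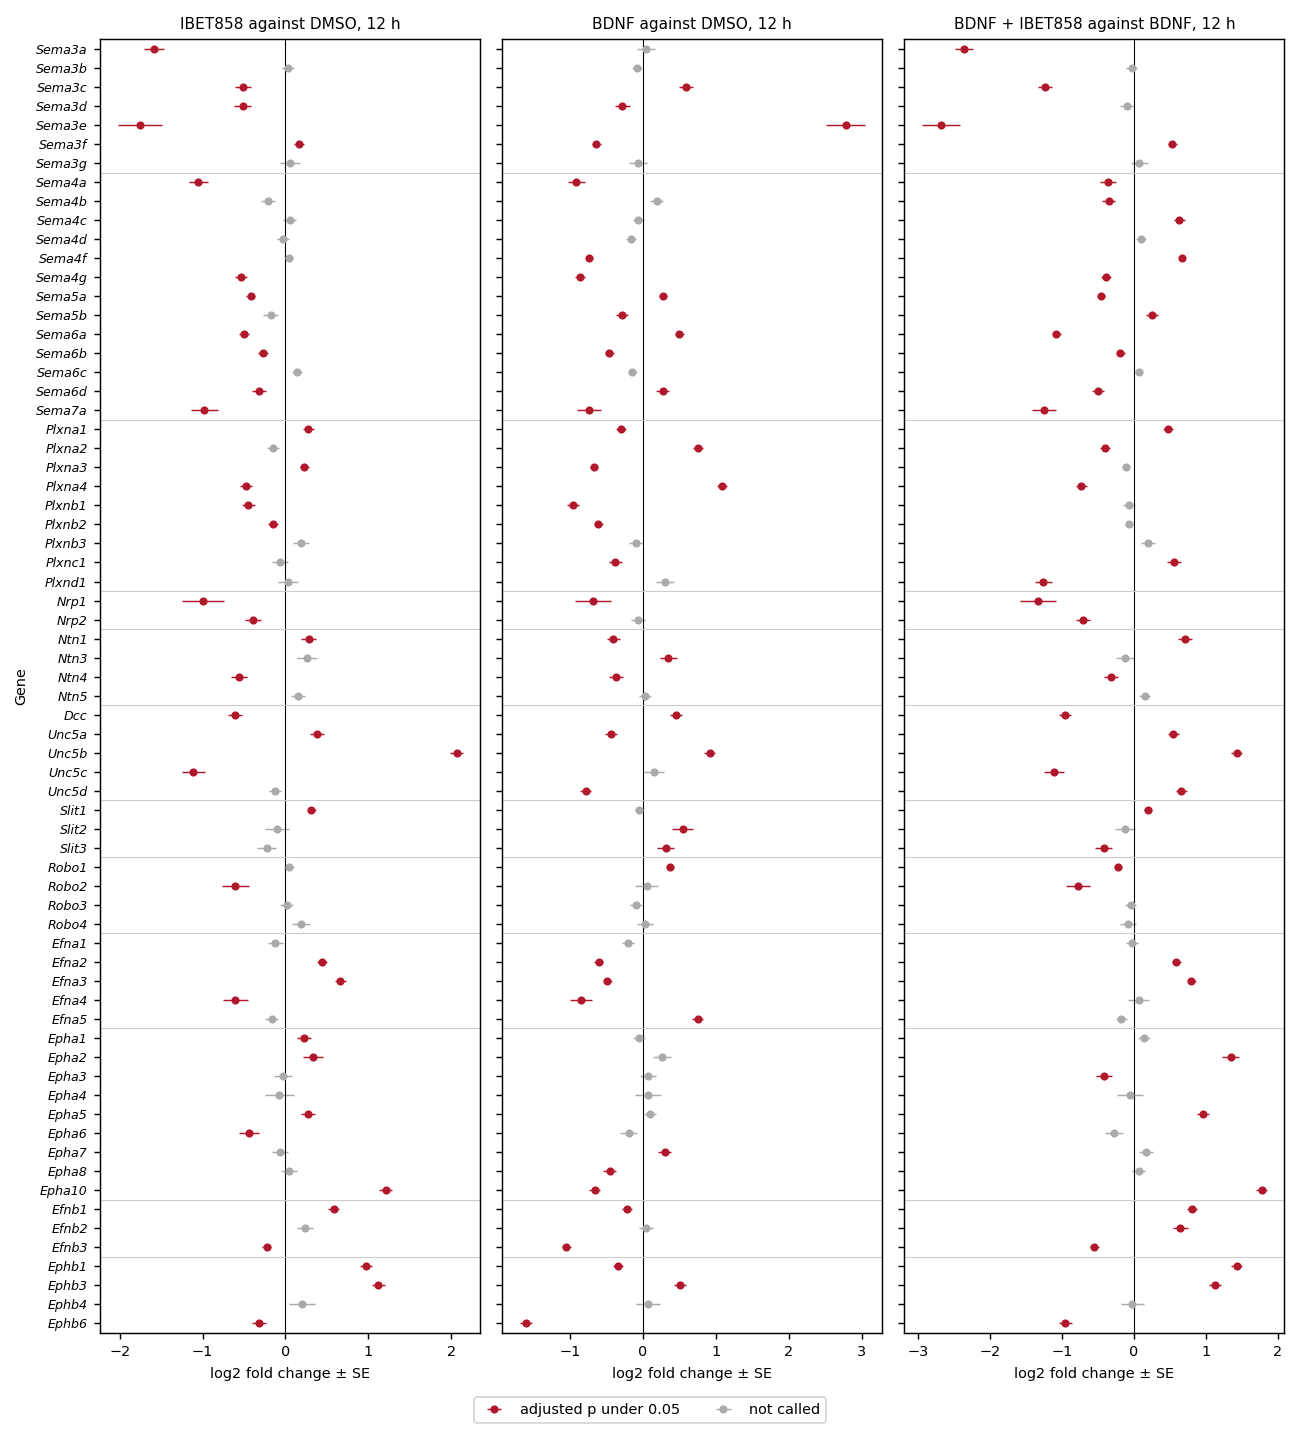
Log2 fold changes at 12 h with their SE for the 68 genes, in 3 panels: IBET858 against DMSO, BDNF against DMSO, and BDNF with IBET858 against BDNF. Red points passed the limma test at an adjusted p under 0.05, and grey points did not. Grey lines separate the families, and Sema3e, at -1.76, 2.78 and -2.68, is the farthest from 0 among the semaphorins in each panel.

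Several genes had changes of opposite sign with the 2 agents at 12 h, which share the DMSO arrays. The log2 fold changes with IBET858 and with BDNF were -0.61 and 0.46 for Dcc, -0.50 and 0.50 for Sema6a, -0.42 and 0.28 for Sema5a, and -0.32 and 0.27 for Sema6d. They were 1.21 and -0.66 for Epha10, 0.97 and -0.34 for Ephb1, 0.66 and -0.49 for Efna3 and 0.27 and -0.31 for Plxna1. In all of these genes both changes passed the limma test.

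The test of whether the change with IBET858 differed in the presence of BDNF passed for 24 of the 68 genes at 12 h, 35.3% beside 16.2% of all genes, with 14 positive and 10 negative (8.94% and 7.24% of all genes). At 2 h it passed for 6, 8.82% beside 8.40%, 3 positive and 3 negative (3.11% and 5.29%). Besides Plxnd1, Sema3a and Epha2, the differences at 12 h reached 0.79 for Unc5d (SE 0.10), 0.69 for Sema4a, 0.67 for Efna4, -0.72 for Sema3c and -0.63 for Ephb6. The Sema3e difference was -0.92 with all arrays (SE 0.38, limma adjusted p = 0.109). Because all groups share 1 estimate of the spread, replicate 1 of DMSO at 2 h enters this SE. Without the 2 arrays that stood apart, it was -0.996 (SE 0.11, limma adjusted p = 3.26e-06). In that fit 29 of the guidance genes passed, beside 19.5% of all genes. The difference of Efna4 lost its call when any of 7 single arrays was left out.

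BDNF given on top of IBET858 changed 35 of the 68 genes relative to IBET858 alone at 12 h, 14 higher and 21 lower, 51.5% beside 39.3% of all genes (16.1% higher and 23.2% lower). Sema3e rose 3.61-fold, with arrays between -0.40 and -0.04 with both agents, against -2.26 to -2.01 with IBET858 alone. Epha2 rose by 1.27, Plxna4 by 0.83 and Epha5 by 0.79. Efnb3, Nrp1, Plxna3 and Sema7a fell by 1.37, 1.03, 1.01 and 1.00, after Ephb6.

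At 2 h fewer guidance genes had changed. With IBET858, 11 of 68 passed, 7 higher and 4 lower, 16.2% beside 14.9% of all genes (5.64% higher and 9.27% lower). Besides those of Unc5b, Ephb3 and Robo2, the changes included rises of Epha2 by 0.67, Efnb1 by 0.53 and Efna3 by 0.40, and falls of Sema4a by 0.39, Sema4c by 0.23 and Sema4d by 0.21. The falls of those 3 semaphorins did not pass without replicate 1 of DMSO, with log2 fold changes of -0.18, -0.14 and -0.12. BDNF changed 22 at 2 h, 9 higher and 13 lower, 32.4% beside 27.9% of all genes (9.79% higher and 18.1% lower). Epha2 rose by 0.60 and Epha6, an EphA receptor, by 0.58, while Efna4 fell by 0.62, Efna2 by 0.57 and Plxnb2, the receptor of Sema4c, by 0.48. Added to BDNF, IBET858 changed 20, 12 higher and 8 lower, 29.4% beside 27.1% (12.2% higher and 14.9% lower). BDNF added to IBET858 changed 15, 5 higher and 10 lower, 22.1% beside 21.2% (6.44% higher and 14.7% lower). The last count was 8 without replicate 3 of the combination and 25 without the 2 arrays that stood apart. Neither of these 2 arrays belongs to that comparison, so only the estimate of the spread shared by all groups differed.

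The changes themselves differed between the times. The change with IBET858 at 12 h differed from that at 2 h in 27 genes, 9 more positive and 18 more negative, 39.7% beside 33.1% of all genes (15.8% and 17.4%). For BDNF this was 31 genes, 11 more positive and 20 more negative, 45.6% beside 24.8% (12.9% and 11.9%). Plxna4, Plxna2 and Efna5 had log2 fold changes with BDNF of 0.17, 0.012 and 0.026 at 2 h and 1.08, 0.76 and 0.75 at 12 h. The 2 h value of Plxna2 averages probe sets that passed in opposite directions, with changes from -0.33 to 0.55. Efnb3 and Plxnb1, by contrast, changed by -0.031 and -0.0064 at 2 h and by -1.05 and -0.96 at 12 h. Between the DMSO groups themselves, 12 of the 68 genes differed at 12 h from 2 h, 17.6% beside 7.54% of all genes. Of these, 5 were higher and 7 lower (3.91% and 3.63% of all genes), with Sema3d lower by 0.49. Ephb6 was higher by 0.36, and by 0.29 without replicate 1 of DMSO at 2 h, where it did not pass (limma adjusted p = 0.0597). That count was 1 when the fit held these 2 groups alone and 5 without replicate 2 of DMSO at 12 h.

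**Figure D4:**
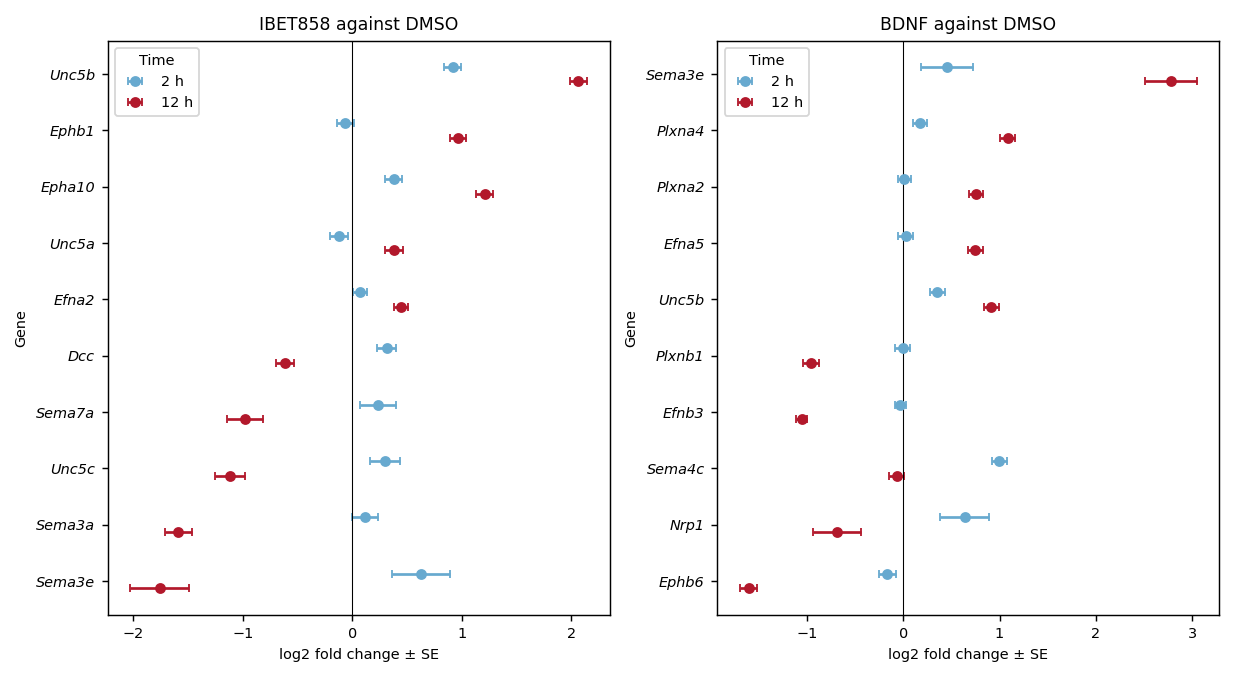
Log2 fold changes with their SE at 2 h (blue) and 12 h (red) for the genes whose change differed most between the times, with IBET858 against DMSO on the left and BDNF against DMSO on the right. With IBET858, Unc5b lies at 0.92 at 2 h and 2.07 at 12 h, and with BDNF, Sema4c lies at 1.00 at 2 h and -0.067 at 12 h.

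Other genes of the pathway were read from 2 lists, chosen with earlier results of these data known. Of 32 further cues, coreceptors and adhesion molecules, 20 fell and 3 rose with IBET858 at 12 h (median log2 fold change -0.38). This is 71.9% beside 48.7% of all genes (22.9% higher and 25.8% lower). With BDNF, 12 rose and 11 fell, 71.9% beside 41.0% (16.9% higher and 24.2% lower). Met, the receptor of hepatocyte growth factor, fell by 2.16 with IBET858 at 12 h, and Omg, a myelin-associated inhibitor of axon growth, by 1.08. Rgma, a repellent that binds neogenin, fell by 1.24 with IBET858 and rose by 1.17 with BDNF, and Lingo1, a coreceptor for inhibitors of axon growth, fell by 0.75 with IBET858 and rose by 1.22 with BDNF. Cxcr4, the receptor of the chemokine CXCL12, rose with BDNF by 2.95 at 2 h and 2.12 at 12 h, and fell by 2.91 when IBET858 was added to BDNF at 12 h. Of 54 measured intracellular effectors, 15 rose and 17 fell with IBET858 at 12 h, 59.3% beside 48.7%, and 15 rose and 15 fell with BDNF, 55.6% beside 41.0%. Chn2, a Rac-inactivating chimaerin, fell by 1.84 with IBET858 at 12 h, while Vav3, an exchange factor used by Eph receptors, rose by 1.27 with BDNF.

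Of the 68 genes, 45 had more than 1 probe set, and for 6 of them 2 probe sets passed in opposite directions in at least 1 comparison, so that the mean of the gene hides a split. These were Plxna2 with BDNF at 2 h, Epha7, Robo1 and Sema4d with IBET858 at 12 h, Sema6c with BDNF at 12 h, and Slit2 and Sema4d for the combination against BDNF at 12 h. Epha7, for example, ranged from -0.68 to 0.40 over 4 probe sets with IBET858. In total, 9 of the 68 genes passed in none of the 8 treatment comparisons: Sema3b, Sema3g, Plxnb3, Ntn5, Robo3, Robo4, Efna1, Epha4 and Ephb4. The shares of all genes that passed in none or in all 8 were not counted, so these numbers have no reference. At 12 h the arrays of the 2 groups did not overlap for 42 genes with IBET858 and 45 with BDNF against DMSO, and 48 for the combination against BDNF, beside 51.2%, 52.1% and 57.0% of all genes.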

How the data were processed

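RNA of 24 samples was hybridised to Affymetrix arrays, 1 array per sample. The authors deposited 1 value per probe set and array, taken here as log2 intensities because RMA, named in the submitters' processing notes, works on that scale. Each of the 45101 probe sets had a median of 0 across arrays (tolerance 1e-06), that is, it had been centred. A planned filter on dim genes needs a level and was not run. Columns of no sample numbered 0.

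Probe sets naming 1 gene by the platform annotation, updated by Entrez ID to RefSeq, were averaged per gene. One limma 3.58.1 model in R 4.3.3 held the 8 group means (16 residual degrees of freedom), with p-values adjusted by Benjamini-Hochberg over 18194 genes and a threshold of 0.05. It was tested on simulated data. The number of arrays limits the precision. A rule picked up to 5 members per direction and contrast, by size of change among those past the threshold. Between 2 groups, the arrays also had to be free of overlap. Values of further members are given beside them. The members, gene lists and rules were chosen with earlier results of these data known. Alternatives were a replicate block, other gene summaries, array centring, array weights, a robust prior, fewer groups or arrays.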

Additional observations from a re-analysis of the deposited data

Results flagged for a closer look

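The change with a treatment differed between 12 h and 2 h by the contrast of the 2 changes in limma, with adjusted p over all 18194 genes, for the genes named here. Values are the log2 fold change at 12 h minus that at 2 h.

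Only the 5 largest differences in each direction are given for each agent. With IBET858 the more positive ones were 1.15 for Unc5b (SE 0.11), 1.03 for Ephb1 (SE 0.10), 0.83 for Epha10 (SE 0.11), 0.50 for Unc5a (SE 0.11) and 0.37 for Efna2 (SE 0.086). The more negative ones were those of Sema3e, at -2.39 (SE 0.38), Sema3a, at -1.71 (SE 0.17), Unc5c, at -1.42 (SE 0.19), Sema7a, at -1.21 (SE 0.23), and Dcc, at -0.92 (SE 0.12). The limma adjusted p-values of these 10 lay between 7.48e-08 and 0.00162. Without the 2 arrays that stood apart the Sema7a difference was -0.79 and the Sema3e difference -1.73.

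With BDNF the more positive differences were 2.32 for Sema3e (SE 0.38), 0.91 for Plxna4 (SE 0.10), 0.74 for Plxna2 (SE 0.10), 0.72 for Efna5 (SE 0.11) and 0.56 for Unc5b (SE 0.11). The more negative ones were -1.44 for Ephb6 (SE 0.12), -1.33 for Nrp1 (SE 0.36), -1.06 for Sema4c (SE 0.11), -1.02 for Efnb3 (SE 0.081) and -0.95 for Plxnb1 (SE 0.11). Their limma adjusted p-values lay between 9.37e-09 and 0.00797. For Plxna2, the 2 h change averages probe sets that passed in opposite directions. The Nrp1 difference was -0.82 without replicate 1 of DMSO at 2 h, and its adjusted p was 0.0561 when only the groups of the contrast were fitted. All these contrasts use the DMSO arrays of both times.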

How the results depend on the processing

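Of 331 calls of guidance genes in 13 contrasts, the number that kept direction and threshold was 329 with a robust prior, 323 with array weights, 321 with centred arrays, 320 at the probe-set level, 316 with specific probe sets, 307 without the 2 arrays that stood apart and 284 with only the groups of each contrast. One call changed sign: Sema6c, BDNF added to IBET858 at 12 h, -0.22 in the main result and 0.012 with specific probe sets (limma adjusted p = 0.934). With array weights the genes called at 2 h numbered 18 with IBET858, 36 with BDNF, 24 with BDNF added to IBET858 and 11 for the difference of IBET858 changes, and 23 between the DMSO groups. BDNF at 2 h called 38 at the probe-set level. There a gene passed if any of its probe sets did, so a gene with several had more chances to pass. Its direction was that of the probe set with the largest change, which need not be the one that passed. The 320 kept calls rest on the same rule. BDNF added to IBET858 at 2 h called 25 without the 2 arrays. The DMSO groups differed in 1 gene when fitted alone. Fewer arrays were fitted in the last 2. Shares of all genes were not counted for these settings, so these counts have no reference. The 2 arrays belong to neither group of BDNF added to IBET858 at 2 h, so its log2 fold changes stayed the same. Its calls changed through the estimate of the spread that all groups share. The other causes were not tested.

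Leaving out 1 array at a time gave these counts at 2 h: 8 to 16 with IBET858, 17 to 24 with BDNF, 17 to 21 for IBET858 added to BDNF, 8 to 15 for BDNF added to IBET858 and 5 to 7 for the difference. At 12 h they were 37 to 41, 39 to 44, 44 to 45, 32 to 34 and 19 to 25. Differences between times gave 24 to 29 with IBET858 and 28 to 36 with BDNF, and the DMSO groups 5 to 13. Shares of all genes were not counted for these fits either.

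On average the replicate numbers did not pair the arrays: deviations of same-numbered arrays had mean correlations of 0.0078, 0.015 and -0.00081, with 4, 4 and 2 of 28 pairs above 0.1, and 11 of 24 arrays correlated best with their own number. Single pairs reached 0.51, 0.24 and 0.32. Replicate 1 of DMSO at 12 h, like that at 2 h, was lowest of its group for Sema3e, Nrp1, Sema7a, Slit2, Unc5c and Plxnd1. It was also highest for Epha4, but not for Sema4a. With the replicate block 323 calls were kept and 8 lost, and 10 genes were called with IBET858 at 2 h.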
